A study of Mus musculus with 18 samples.

Results

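The hippocampus lies along the lateral ventricle, and a dissected hippocampus can carry some choroid plexus, the vascular fold in the ventricle that makes cerebrospinal fluid. The epithelium of the choroid plexus secretes transthyretin (TTR), the carrier of thyroxine in the cerebrospinal fluid, and moves ions, water, folate and hormones between blood and fluid through a large set of channels, transporters and receptors. TTR is by far its most abundant messenger RNA of this kind, and neurons and glia of the hippocampus make very little of it. Here the hippocampus libraries of 18 mice were divided into 9 with high and 9 with low TTR, so the sets were chosen by a measured value, TTR as CPM, its counts scaled to 1000000 gene counts, in each mouse. All 18 mice belong to one set or the other, and the libraries are compared gene by gene to list the transcripts whose level followed TTR.

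The mice were C57/B6 animals in 3 groups of 6, each with 3 males and 3 females. Younger mice were 9 months old and older mice 20 months old. Older 3TC-treated mice were also 20 months old and drank 3TC (lamivudine, a nucleoside analog that blocks reverse transcriptase) at 2 mg/mL for 6 weeks. The other mice drank water without the drug. Each library came from the left hippocampus of 1 mouse, and each mouse is named by the code in its label (YM and YF for younger males and females, CMO and CFO for older controls, DMO and DFO for older 3TC-treated mice). Libraries held 6.01 to 13.04 M gene counts, and transposable elements (TEs, repeats counted in a second table) took 63.4% to 85.7% of all counts. TTR is the marker that fixed the sets, so the comparison between them is a description and carries no p-value.

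TTR ranged from 11.5 CPM in DMO2 to 2440.5 CPM in CMO3, a ratio of 211. In the 9 high-TTR libraries the lowest level was 703 CPM, the median 1513 CPM and the highest 2440.5 CPM. In the 9 low-TTR libraries the lowest level was 11.5 CPM, the median 26.0 CPM and the highest 414 CPM. The cut fell between DMO5 at 703 CPM and CMO6 at 414 CPM, a ratio of 1.70, so the sets touch rather than form separate clusters. Below the cut, CMO6 and YF2 (231 CPM) held an intermediate level, and the other 7 low-TTR libraries lay between 11.5 and 37.6 CPM. Even the fewest TTR reads, 106 counts in YF3, gave 14.6 CPM with an exact 95% binomial interval of 11.9 to 17.6 CPM, which covers counting error only.

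**Figure D1:**
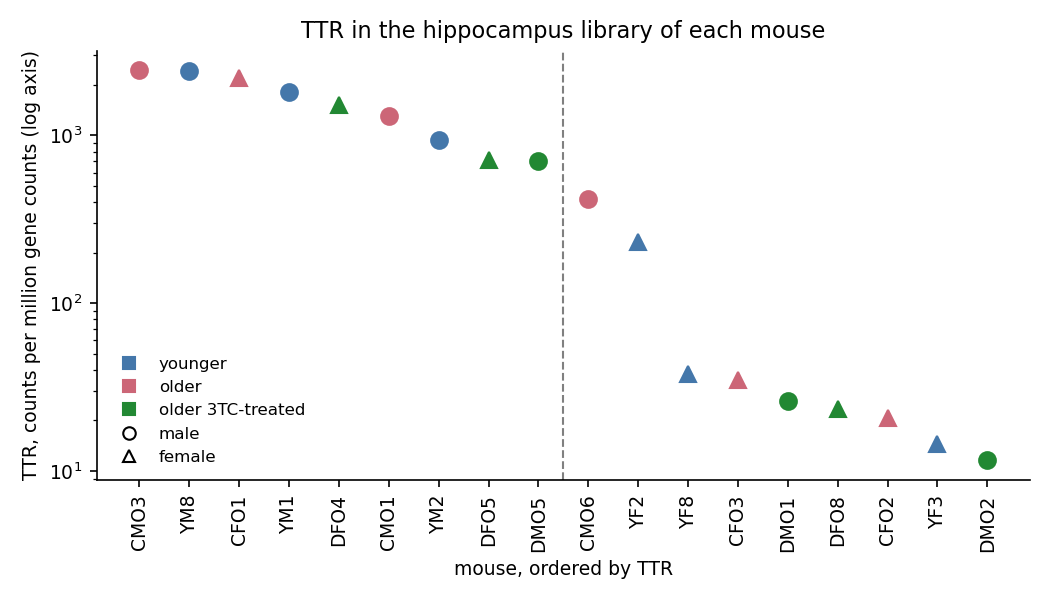
TTR in CPM (log axis) for each of the 18 mice, ordered from highest to lowest, with colour for the study group, circles for males and triangles for females, and a dashed line at the cut between the 9 high-TTR and 9 low-TTR libraries. Levels run from 2440.5 CPM in CMO3 to 11.5 CPM in DMO2, and all 3 groups lie on both sides of the line.

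Each study group was spread evenly over the sets, with 3 of its 6 mice among the high-TTR and 3 among the low-TTR libraries. The sexes were not spread evenly: 6 males and 3 females were in the high-TTR set, and 3 males and 6 females in the low-TTR set. Within the younger group the split followed sex completely, since all 3 high-TTR mice were males and all 3 low-TTR mice females. Among older mice 2 males and 1 female were high, and among older 3TC-treated mice 1 male and 2 females were high.

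The groups and sexes did not enter the rule, and TTR was therefore tested over them with two-sided exact permutation tests on log2 CPM. TTR was 905 ± 1007 CPM in younger mice, 1069 ± 1079 CPM in older mice and 498 ± 600.4 CPM in mice given 3TC (SD, n = 6 each). Every group held libraries near the bottom of the range, and the lowest levels were 14.6, 20.6 and 11.5 CPM. The highest levels were 2409 CPM in younger mice and 2440.5 CPM in older mice. In older 3TC-treated mice the highest level was lower, 1513 CPM. On the log2 scale, older mice exceeded younger mice by 0.34 (exact permutation p = 0.82, n = 6 and 6, adjusted over the 4 comparisons 0.82). Older 3TC-treated mice differed from older mice by -1.43 (exact permutation p = 0.364, n = 6 and 6, adjusted 0.716) and from younger mice by -1.10 (exact permutation p = 0.537, n = 6 and 6, adjusted 0.716). With 6 mice against 6 the smallest possible p is 0.00216. Males exceeded females by 1.97 (exact permutation p = 0.162, n = 9 and 9, adjusted 0.648), and 7 of 9 males lay above the female mean. None of the 4 differences exceeded the spread between mice, and that spread was wide, with an SD of 2.83 or more on the log2 scale in every group and sex.

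Outside TTR, 15634 genes had a mean count above 10 and were compared between the sets as the difference of mean log2 CPM (prior count 2). The median difference over these genes was -0.03, and 5540 genes (35.4%) lay above 0. A rise of 2-fold or more in the high-TTR libraries was seen in 15 genes, 0.0959% of those compared, and a fall of 2-fold or more in 1 gene, 0.0064%. The 15 genes were of 2 kinds only. The first kind was 9 genes from 3 lists of choroid plexus genes, and the second was 6 genes of the Y chromosome, in a set that held 6 males against 3 in the other. Every high-TTR library exceeded every low-TTR library in 5 genes, 0.032% of those compared, namely ENPP2, KL, KCNJ13, TRPM3 and ABHD2. The opposite order, every high-TTR library below every low-TTR library, was seen in 0 genes, 0%. The choroid plexus lists were written with earlier results of these data known, and members and non-members are given here as values without a test of the lists.

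**Figure D2:**
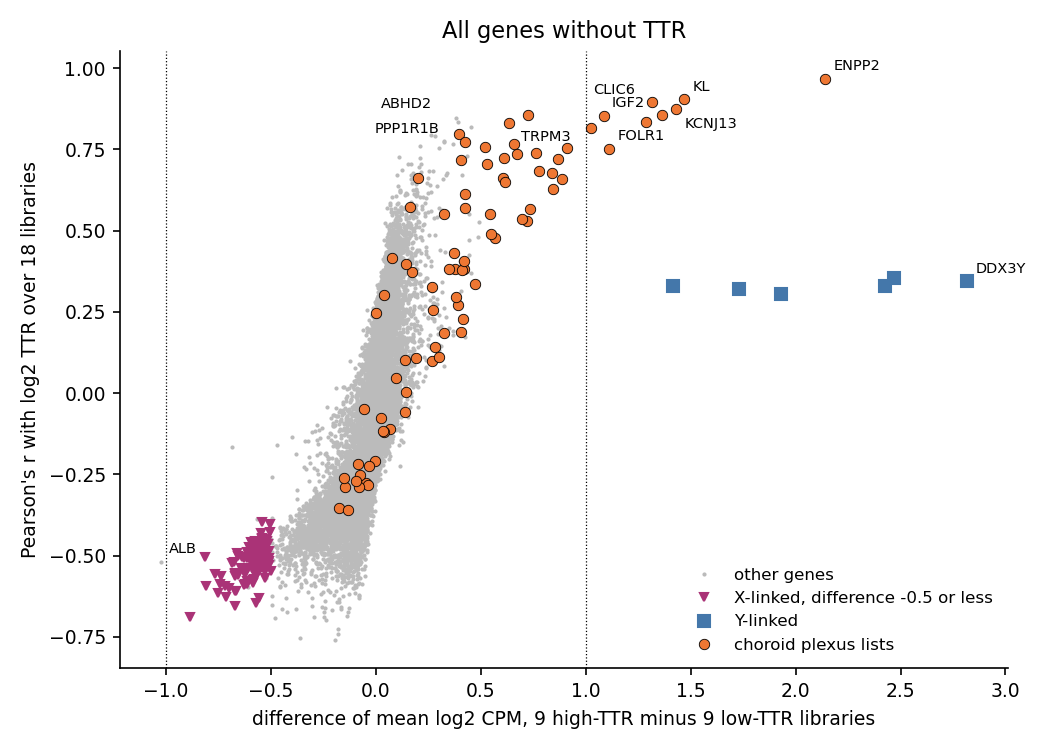
Difference of mean log2 CPM between the 9 high-TTR and 9 low-TTR libraries (x axis) against Pearson's r of log2 CPM with log2 TTR over the 18 libraries (y axis) for 15634 genes, with choroid plexus list members in orange, Y-linked genes as blue squares, X-linked genes at -0.5 or less as purple triangles and dotted lines at 2-fold. ENPP2 lies furthest to the upper right at 2.14 and r = 0.97, and the Y-linked genes reach 2.82 with r near 0.3.

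The secreted proteins and receptors of the plexus epithelium held the gene closest to TTR. ENPP2 (autotaxin, the secreted enzyme that makes lysophosphatidic acid, also made by oligodendrocytes) had a lowest level of 470 CPM, a median of 1046 CPM and a highest level of 1531 CPM in the high-TTR libraries. In the low-TTR libraries the same values were 168, 183 and 469 CPM. The sets do not overlap, but they nearly meet, because DMO5 and CMO6, the libraries on either side of the cut, had 470 and 469 CPM. The difference was 2.14 on the log2 scale, a fold of 4.41, and r with log2 TTR was 0.97 over 18 libraries. For ENPP2 the relation was also seen inside each set, with r = 0.98 over the 9 high-TTR and 0.93 over the 9 low-TTR libraries. It was also seen inside the groups of younger, older and 3TC-treated mice (0.97, 0.99 and 0.96, n = 6 each). In the low-TTR set CMO6 and YF2 held 469 and 328 CPM of ENPP2, and the other libraries 168 to 235 CPM. Inside that set r was lower for KL (0.61), CLIC6 (0.58), KCNJ13 (0.11), SOSTDC1 (0.05) and FOLR1 (-0.21).

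KL encodes klotho, the co-receptor of FGF23 and a protein studied in aging, and it is made in the plexus epithelium and at a lower level in neurons. Its level was 55.6 to 166 CPM (median 99.9) in the high-TTR libraries and 29.3 to 50.1 CPM (median 38.8) in the low-TTR libraries. The sets did not overlap, and KL was 1.47 higher on the log2 scale, with r = 0.91 over 18 libraries. The 4 libraries richest in TTR, 2 of them from younger and 2 from older mice, held 143 to 166 CPM of KL, more than any other library.

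Other secreted factors and receptors followed with smaller folds. SOSTDC1, a secreted antagonist of BMP and Wnt signalling, was 9.60 to 30.2 CPM in high-TTR and 5.35 to 9.99 CPM in low-TTR libraries, a difference of 1.29. IGF2, a growth factor of plexus and meninges, was 44.7 to 114 CPM against 29.7 to 46.9 CPM, a difference of 1.09. IGFBP2, a binding protein for that factor, was 21.3 to 67.0 CPM against 15.8 to 23.5 CPM, a difference of 1.02. In each of these 3 genes 8 of the 9 high-TTR libraries exceeded every low-TTR library, and the exception was DFO5. FOLR1, the folate receptor that carries folate into the cerebrospinal fluid, was 9.06 to 31.3 CPM against 7.98 to 16.1 CPM, a difference of 1.11. Here too DFO5 lay low among the high-TTR libraries, and CFO2 with 16.1 CPM was the highest of the low-TTR libraries.

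Among the channels, KCNJ13 (the inward rectifier Kir7.1 of the epithelium's apical membrane) was 12.2 to 28.0 CPM (median 18.7) in high-TTR libraries and 5.34 to 10.2 CPM (median 7.04) in low-TTR libraries. The sets did not overlap, the difference was 1.43 and r was 0.87. KCNE2, a beta subunit of potassium channels, was 10.4 to 25.1 CPM against 4.11 to 11.3 CPM, a difference of 1.37, with CFO2 above the lowest high-TTR library. CLIC6, an intracellular chloride channel protein, was 31.0 to 92.6 CPM against 17.6 to 37.3 CPM, a difference of 1.31 with r = 0.90. TRPM3, a cation channel gene of plexus and neurons, was 166 to 278 CPM against 112 to 155 CPM, and its difference was only 0.63 although the sets did not overlap. SLC4A2, an anion exchanger, was 59.1 to 109 CPM against 45.3 to 62.3 CPM, a difference of 0.73 with r = 0.86.

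Below 2-fold, 22 further list members were at least 0.5 higher on the log2 scale, so that 31 of 83 measured members passed that size. Over all genes 38 passed it, of which 31 were list members, 6 were Y-linked and 1 was C1QTNF5. C1QTNF5 overlaps the list member MFRP and had nearly the same counts, 0.77 and 0.76 higher, so its reads cannot be told from those of MFRP. The enzyme ACE, which makes angiotensin II, was 0.91 higher, the prolactin receptor PRLR 0.87, the clotting factor F5 0.84, the heparan sulfate sulfatase SULF1 0.84 and the retinol dehydrogenase RDH5 0.78. The serotonin receptor HTR2C, with 73.6 ± 33.9 CPM (SD, n = 9) against 45.5 ± 9.10 CPM (SD, n = 9), was 0.61 higher. The thyroid hormone transporter SLCO1C1 was 0.39 higher with r = 0.80, and the cotransporter SLC12A2 of fluid secretion 0.41 higher with r = 0.72.

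The 3 lists moved alike in sign and differed in size. Of 27 measured secreted proteins and receptors, 23 lay above 0 and 6 were 2-fold or more higher, with a median difference of 0.42. Of 30 channels and transporters, 25 lay above 0 and 3 were 2-fold or more higher, with a median of 0.37. Of 26 transcription factors, junction and cytoskeleton genes, 22 lay above 0 and 0 were 2-fold higher, with a median of 0.41. In this last list the homeobox factor OTX2 was 0.57 higher, the tight junction protein CLDN2 0.69, the cell cycle inhibitor CDKN1C 0.66 and the collagen COL8A1 0.74. Together 70 of 83 members lay above 0 (84 with TTR), against 35.4% of all genes, and 4 of the 83 had sets that did not overlap. Of the 88 listed genes, 4 were not among the genes compared.

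Several textbook genes of the epithelium followed TTR little or only in part in these libraries. The sodium pump beta subunit ATP1B1, the apolipoprotein CLU and the protease inhibitor CST3 differed by 0.00, 0.04 and 0.07. These 3 genes lay at 436 CPM or more on average in either set, and neurons or glia are known to make them in quantity. The endocytic receptor LRP2 (-0.17), the retinol receptor STRA6 (0.00), the organic anion transporter SLC22A8 (-0.05) and the homeobox factor LMX1A (-0.08) lay lower than these 3 and also differed little. The bicarbonate cotransporter SLC4A5, 0.47 higher, had a median of 54.2 CPM (25.0 to 64.8) in the high-TTR libraries and 33.1 CPM (22.2 to 61.9) in the low-TTR libraries. Its sets overlapped through CFO2 (61.9 CPM) and YF3 (50.1 CPM) among the low-TTR and DFO5 (25.0 CPM) among the high-TTR libraries.

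The spread of the gene levels along TTR was also described by a least-squares line of CPM on TTR CPM. For each 1000 CPM of TTR the line rose by 557 CPM for ENPP2, 50.7 for KL, 47.0 for TRPM3, 30.0 for IGF2, 27.7 for CLIC6, 8.45 for KCNJ13 and 7.98 for FOLR1. The level at 0 TTR is the part of each gene that the line does not tie to TTR. It was 28.5% of the mean level for ENPP2, 45.5% for KL, 49.1% for KCNJ13, 50.2% for SOSTDC1, 58.4% for IGF2 and 77.6% for TRPM3. For OTX2 (80.5%) and SLC4A5 (84.9%) most of the counted level lay outside the line. The summed level of the 83 list members rose by 1242 CPM per 1000 CPM of TTR from 5284 CPM at 0 TTR, and the slope of ENPP2 alone was 44.8% of that rise. This sum was 5831 to 8379 CPM in high-TTR and 5092 to 5860 CPM in low-TTR libraries.

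**Figure D3:**
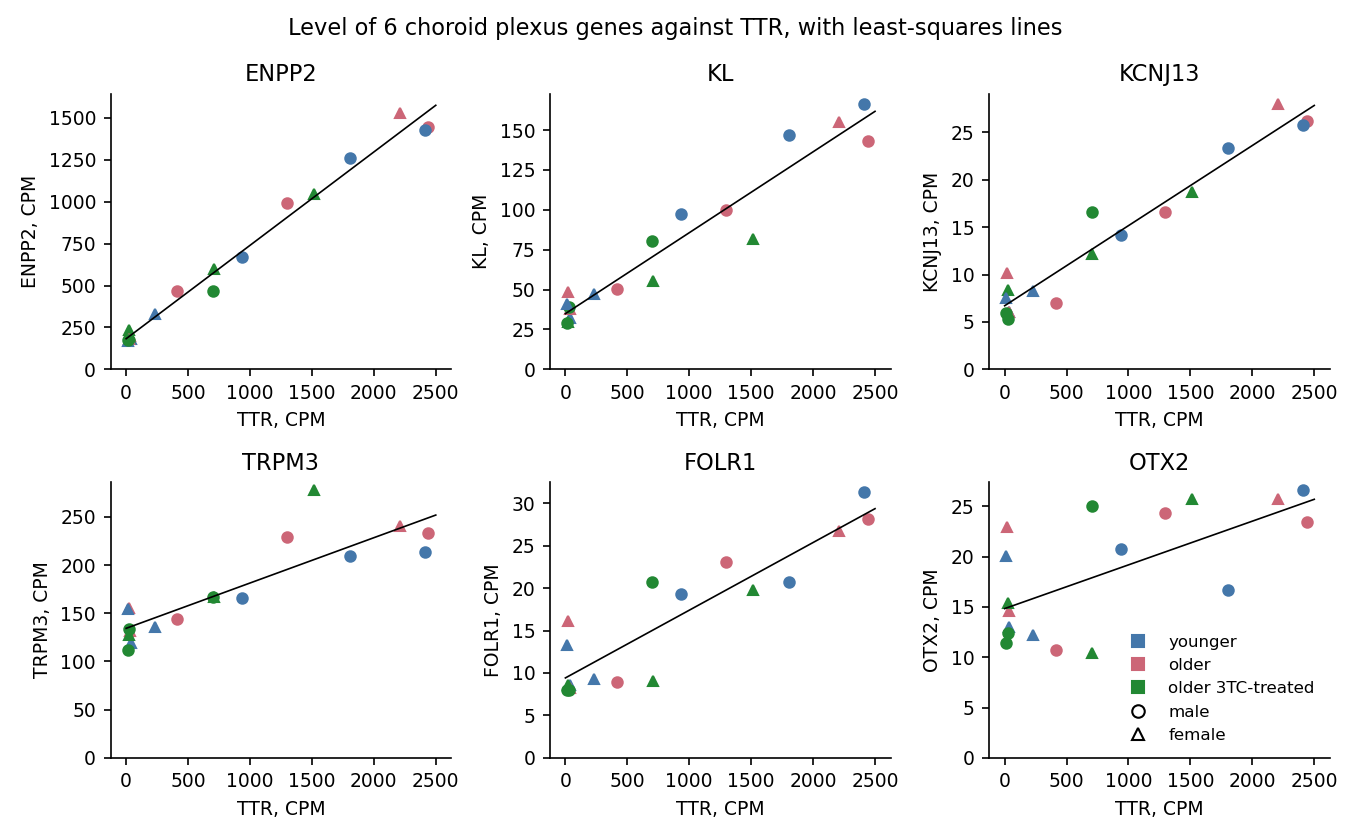
CPM of ENPP2, KL, KCNJ13, TRPM3, FOLR1 and OTX2 (y axes, from 0) against TTR CPM (x axes) in 18 libraries, with colour for the group, circles for males, triangles for females and the least-squares line. ENPP2 lies close to its line, which meets the axis at 28.5% of its mean, while OTX2 scatters from 10.4 to 26.6 CPM around a line that meets the axis at 80.5% of its mean.

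The weaker members also moved with another property of the libraries, the share of counts taken by TEs. This share was 63.4% to 85.1% (median 76.4%) in high-TTR and 68.3% to 85.7% (median 78.2%) in low-TTR libraries. Over 18 libraries the mean log2 CPM of all 15634 genes had r = 0.98 with the TE share, and that of the 2208 genes under 10 CPM had r = 0.99. The mean of the 83 choroid plexus genes had r = 0.56 with log2 TTR and 0.42 with the TE share. For the 31 members at least 0.5 higher, a choice made on the difference itself, the values were 0.82 and 0.01, and for the other 52 members they were 0.15 and 0.78. ENPP2 had r = -0.40 with the TE share, KL -0.22, FOLR1 0.11 and OTX2 0.44.

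In single libraries the same pattern is seen. CFO2 and YF3 held 20.6 and 14.6 CPM of TTR, yet their mean choroid plexus level of 5.15 and 4.99 lay above that of the other low-TTR libraries (4.42 to 4.69), and their TE shares were 85.7% and 83.6%. DFO5 and YM1 held 709 and 1804 CPM of TTR, had means of 4.41 and 4.88, the lowest of the high-TTR libraries, and TE shares of 65.9% and 63.4%. A ranking by the 83 genes without TTR therefore put DFO5 last and exchanged YM1 and DFO5 for CFO2 and YF3, with 14 of 18 libraries staying in their set. With the TE share as a term in the comparison, an alternative added after seeing the data, 80 of 83 members lay above 0 with a median difference of 0.49, against 70 and 0.39 without it. The term shifted all genes the same way, from 35.4% above 0 with a median of -0.03 to 63.1% above 0 with a median of 0.03. All 15 genes 2-fold or more higher were among the 16 found with that term, and the added gene was TMEM72.

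**Figure D4:**
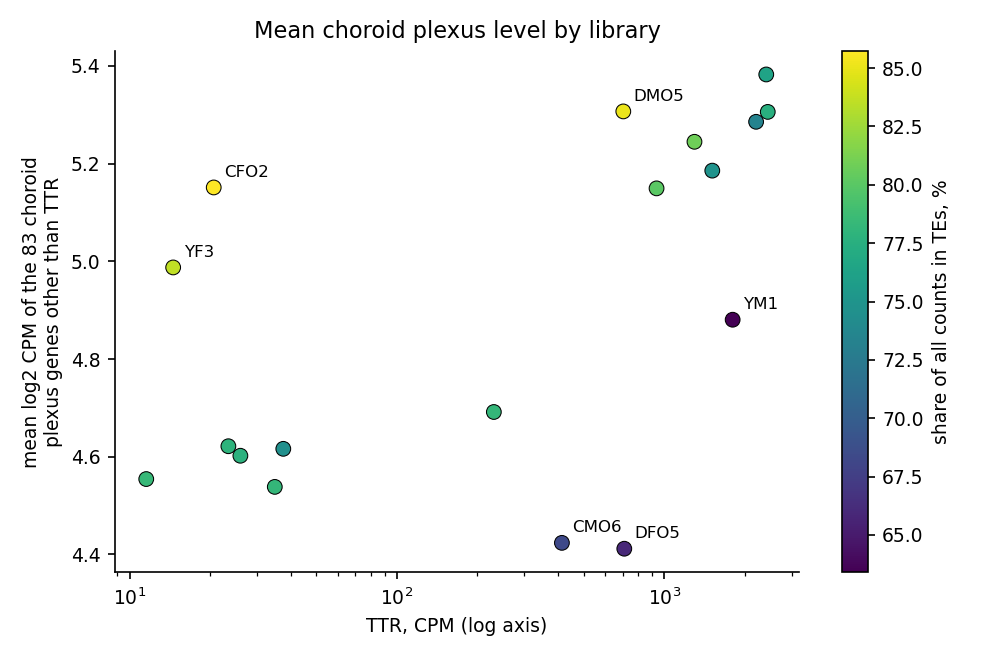
Mean log2 CPM of the 83 choroid plexus genes other than TTR (y axis) against TTR CPM (log x axis) in 18 libraries, with colour for the share of counts in TEs. CFO2 and YF3, with TE shares of 85.7% and 83.6%, lie at 5.15 and 4.99 at low TTR, and DFO5, with 65.9%, lies lowest at 4.41 despite 709 CPM of TTR.

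The promoters of 2 genes that followed TTR without overlap and of 2 that hold the motif searched are printed to show what stands before genes that moved together. They are the 250 bases before the RefSeq start site (GRCm38.p6), 5′ to 3′ on the gene's strand, with matches of TAATCC or its reverse complement GGATTA in capitals. TAATCC is the core that OTX2 and related homeobox factors bind. KL lies at chr5:150952357-150952606 (plus strand), KCNJ13 at chr1:87394730-87394979 (minus strand), ACE at chr11:105967698-105967947 (plus strand) and MFRP at chr9:44101520-44101769 (plus strand).
KL: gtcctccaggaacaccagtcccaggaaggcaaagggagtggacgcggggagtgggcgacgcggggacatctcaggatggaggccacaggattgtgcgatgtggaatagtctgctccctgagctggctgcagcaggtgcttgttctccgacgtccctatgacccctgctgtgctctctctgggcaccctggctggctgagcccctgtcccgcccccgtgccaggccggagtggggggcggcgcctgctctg
KCNJ13: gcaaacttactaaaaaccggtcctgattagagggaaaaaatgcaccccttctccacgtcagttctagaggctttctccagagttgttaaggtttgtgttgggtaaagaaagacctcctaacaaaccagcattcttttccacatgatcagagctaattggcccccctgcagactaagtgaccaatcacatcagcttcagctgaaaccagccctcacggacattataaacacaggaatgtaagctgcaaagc
ACE: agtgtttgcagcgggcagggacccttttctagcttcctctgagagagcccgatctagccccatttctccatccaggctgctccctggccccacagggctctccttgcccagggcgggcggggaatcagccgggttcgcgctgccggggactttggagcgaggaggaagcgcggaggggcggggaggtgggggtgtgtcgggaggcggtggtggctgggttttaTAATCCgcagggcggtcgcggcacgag
MFRP: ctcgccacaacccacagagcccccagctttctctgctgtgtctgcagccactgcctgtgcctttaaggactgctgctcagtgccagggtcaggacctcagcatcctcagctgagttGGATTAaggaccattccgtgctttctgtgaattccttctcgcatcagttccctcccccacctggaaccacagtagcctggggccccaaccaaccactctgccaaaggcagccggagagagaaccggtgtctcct

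Of the 10 list members that were 2-fold or more higher or did not overlap, 6 had a promoter in the RefSeq table (KL, KCNJ13, KCNE2, IGF2, IGFBP2 and TRPM3), and none of their 12 start sites held the 6 letters in this window. Among all 83 members, 61 had a promoter and 6 of these genes (9.84%) held it, beside 6.36% of the 12158 genes with a promoter among all genes compared. Counted by start site the shares were 7.14% of 84 and 5.21% of 15356, and 6.25% of all 32851 promoters in the table held it. ACE and MFRP hold it once each and OTX2 holds it before 1 of its start sites. A match is a run of letters and not a bound site. Among the printed sequences, the KL promoter is 66.8% and the KCNJ13 promoter 45.2% G or C.

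Over all genes, 13 had r of 0.8 or more with log2 TTR over 18 libraries, of which 10 were list members. The other 3 were ABHD2, PPP1R1B and GGH. ABHD2, a serine hydrolase, was 97.5 to 125 CPM in high-TTR and 75.9 to 93.3 CPM in low-TTR libraries. Its difference of 0.38 was small, but the sets did not overlap and r was 0.84. PPP1R1B (DARPP-32, a phosphoprotein of dopamine-responsive neurons) was 28.2 to 48.8 CPM against 24.7 to 30.2 CPM, a difference of 0.45 with r = 0.82. GGH, which trims the glutamate tail of folates, was 15.9 to 24.4 CPM against 11.99 to 16.9 CPM, a difference of 0.39 with r = 0.83. PPP1R1B stands in the list of striatum and septum genes, which as a whole did not move with it. Of the 18 members, 6 lay above 0, PPP1R1B included, and the median was -0.08. RGS9, a regulator of G protein signalling in striatum, was 0.68 lower with strongly overlapping sets.

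The tissues that adjoin the plexus did not follow TTR. The gene lists of motile cilia and ependyma, the ciliated lining of the ventricle, had 6 of 30 members above 0 with a median of -0.08. Meningeal and plexus stroma fibroblasts had 8 of 28 above 0 with a median of -0.09, and IGF2, which is in this list too, was its only member 2-fold higher. Prostaglandin D synthase (PTGDS), a main product of meninges and plexus, was 65.6 to 362 CPM in high-TTR and 53.6 to 197 CPM in low-TTR libraries, a difference of 0.28 with r = 0.23. The 362 CPM was that of DFO4, and the next level in the high-TTR set was 194 CPM. Without single mice the PTGDS difference was 0.09 to 0.40. Border macrophages had 1 of 12 above 0 with a median of -0.19, and the lymphatic and macrophage receptor LYVE1 was 0.30 lower with overlapping sets. Endothelium and mural cells had 8 of 19 above 0 (median -0.04) and red blood cell genes 0 of 4 (median -0.12). All these medians lie within 0.2 of the median of all genes, -0.03, and the mean levels of the cilia, fibroblast, macrophage and endothelial lists had r of 0.94, 0.91, 0.98 and 0.93 with the TE share.

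The lists of hippocampal cells differed little between the sets. Astrocytes had a median of 0.02 (11 of 16 above 0), microglia 0.01 (9 of 16), oligodendrocytes and their precursors 0.07 (13 of 17), dentate gyrus -0.05 (4 of 17), the CA fields -0.10 (4 of 22), neocortex and subiculum -0.09 (3 of 18) and interneurons -0.12 (5 of 14). The myelin gene MBP was 1664 ± 709 CPM (SD, n = 9) against 1420.2 ± 320 CPM (SD, n = 9), a difference of 0.16. DFO4 alone held 3335 CPM of MBP, and without it the difference was 0.03, and the oligodendrocyte list had a median of -0.03 with 5 of 17 above 0. In bulk libraries fewer cells of a type and less RNA per cell cannot be told apart. Genes of the habenula and pineal region had a median of -0.04 (3 of 16 above 0).

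The thalamus list lay higher, with 22 of 24 members above 0 and a median of 0.21, and a single library carried most of this. DFO4 held 435 CPM of the thalamic glutamate transporter gene SLC17A6 and 322 CPM of the kinase gene PRKCD, while the other 17 libraries held 38.02 to 81.1 CPM and 28.9 to 132 CPM. Without DFO4 the median was 0.03 and 15 of 24 members lay above 0. The mean level of the thalamus list had r = 0.14 with log2 TTR over 18 libraries.

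**Figure D5:**
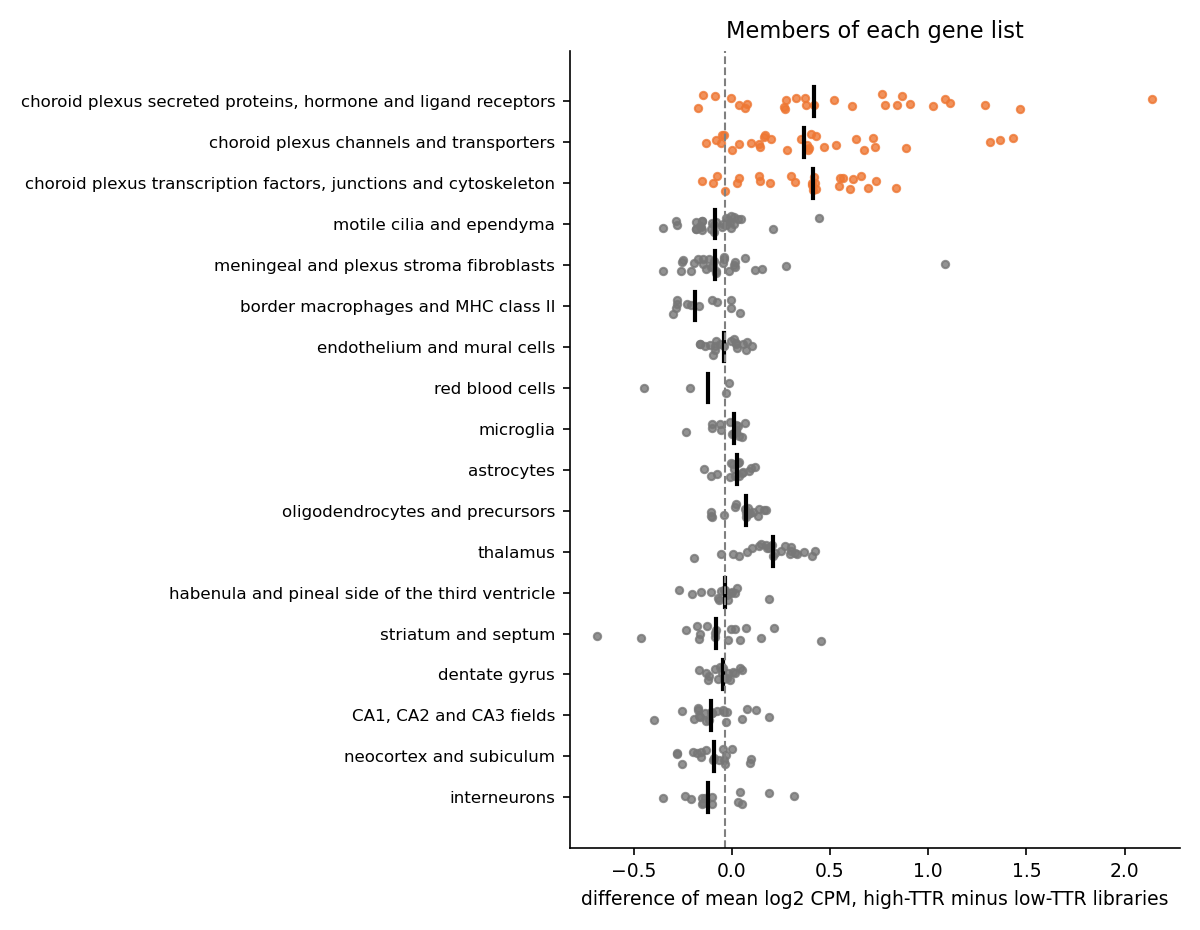
Difference of mean log2 CPM between high-TTR and low-TTR libraries for each measured member (point) of 18 gene lists, with a black bar at the list's median and a dashed line at the median of all genes (-0.03). The 3 choroid plexus lists, in orange, have medians of 0.42, 0.37 and 0.41, the thalamus list 0.21 and all other lists between -0.19 and 0.07.

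The genes at least 0.5 lower in the high-TTR libraries belonged mainly to the X chromosome, a look made after the values were seen. Of these 111 genes, 100 were X-linked, beside 563 of the 15632 genes matched to a chromosome. The 10 with the largest falls held 9 X-linked genes. They were low genes such as MAGEB18 (3.15 ± 1.26 against 6.16 ± 2.58 CPM, SD, n = 9 each) and CD40LG (2.74 ± 1.42 against 4.88 ± 2.42 CPM, SD, n = 9 each). Of the 146 X-linked genes under 10 CPM, 144 lay below 0 between the sets with a median of -0.51. Of the 2058 autosomal genes under 10 CPM, 1755 also lay below 0, with a median of -0.14. All 146 X-linked genes were lower in males than in females with a median of -0.85. The same was seen in 892 of the 2058 autosomal genes, with a median of 0.02. With sex as a term, the median difference between the sets was -0.24 for these X-linked genes and -0.16 for these autosomal genes. The 6 Y-linked genes had a median difference of 2.18, and -0.01 with sex as a term. DDX3Y, an RNA helicase gene of the Y chromosome, was 0 CPM in each of the 9 females and 70.0 to 90.2 CPM in the 9 males so that all 18 libraries carried the sex of their label.

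With sex as a term, 9 genes were 2-fold or more higher, and all 9 were choroid plexus list members. Among males alone (6 high, 3 low) ENPP2 was 1.98 higher, KL 1.61 and FOLR1 1.48, and among females alone (3 high, 6 low) 2.24, 1.19 and 0.69. OTX2 was 0.96 higher among males and 0.25 among females, and AQP1, the water channel of the epithelium, 1.07 and 0.34. The differences between the sexes were not tested.

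The autosomal gene with the largest fall was ALB (albumin, the main plasma protein, made in liver), 6.43 to 82.3 CPM in high-TTR and 9.92 to 102 CPM in low-TTR libraries. Its difference was -1.03, with r = -0.52, and the sets overlapped widely. DMO5 with 82.3 CPM in the high-TTR set and CFO2 with 102 CPM in the low-TTR set stood apart from the rest, and they are also the libraries with the highest TE shares of their sets, 85.1% and 85.7%. The strongest negative correlations with log2 TTR were those of CAV2 (caveolin-2, r = -0.76), TMA16 (-0.75) and SORCS3 (-0.74), with differences of -0.20, -0.36 and -0.18, and no gene reached r of -0.8.

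The groups of the study were then compared with and without TTR in the model, with edgeR's quasi-likelihood test over 16774 genes and TEs and all 18 mice in one fit. At an adjusted p under 0.05, aging (older against younger) called 2 genes, 0.0119%, both higher. 3TC (older 3TC-treated against older) called 0 genes, 0%, and older 3TC-treated against younger called 2 genes, 0.0119%. The 2 genes were IDE, the insulin-degrading enzyme, and FGFBP3, in either case. IDE was 56.3 to 76.6 CPM in younger mice and 104 to 151 CPM in older mice with or without 3TC. Younger and older mice were separate animals, so age cannot be told apart from other differences between them, and a cause was not tested. At an unadjusted edgeR p under 0.05 there were 67 genes in aging, 194 in 3TC and 288 in older 3TC-treated against younger. Each number is fewer than 1 in 20 of the 15635 genes, TEs not counted. Between high-TTR and low-TTR libraries IDE differed by -0.05 and FGFBP3 by -0.16. With log2 TTR as a term the numbers of calls were the same, 2, 0 and 2. IDE was 1.06 ± 0.10 higher (SE, edgeR adjusted p = 1.6e-05) in aging without the term and 1.06 ± 0.10 with it.

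None of the 84 choroid plexus genes compared (TTR included) was called in any of the 3 comparisons. In the 3TC comparison 73 of 84 had estimates below 0 with a median of -0.17, beside 46.6% below 0 and a median of 0.01 over all 15635 genes, and 1 had an unadjusted p under 0.05. With log2 TTR as a term 63 of 84 were below 0 and the median was -0.05, beside 46.2% and 0.01 over all genes. In aging 54 of 84 were above 0 with a median of 0.04, and 47 with a median of 0.02 with the term, beside 46.4% above 0 and a median of -0.01 over all genes in either fit. In older 3TC-treated against younger mice 71 of 84 were below 0 with a median of -0.14, and 63 with a median of -0.07 with the term, beside 48.6% and 48.5% below 0 and medians of 0.00 over all genes. The comparisons share mice, the older controls in aging and 3TC, so their estimates are not independent.

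Group estimates of 5 genes are given with and without the term. They were picked for their correlation with TTR, which is the term itself, so that estimates nearer 0 and smaller standard errors with it follow from the choice of genes and are descriptions only. In older mice ENPP2 was 803 ± 607 CPM, after 3TC 450.5 ± 338 CPM and in younger mice 672 ± 553 CPM (SD, n = 6 each). Its 3TC estimate was -0.81 ± 0.64 on the log2 scale (SE, edgeR adjusted p = 1), and -0.01 ± 0.22 with log2 TTR as a term. KL was 88.4 ± 57.7 CPM in younger mice, 89.2 ± 51.4 CPM in older mice and 52.6 ± 24.0 CPM after 3TC (SD, n = 6 each). Its 3TC estimate was -0.76 ± 0.44 (SE, edgeR adjusted p = 1) and -0.27 ± 0.18 with the term. KCNJ13 moved from -0.47 ± 0.45 to -0.04 ± 0.22, CLIC6 from -0.57 ± 0.42 to -0.19 ± 0.17 and SOSTDC1 from -0.79 ± 0.41 to -0.36 ± 0.22 (SE).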

How the data were processed

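The authors trimmed and filtered reads with fastp, aligned them to mm10 with STAR, keeping reads with up to 100 places, and deposited whole-number counts, not normalized, for 15644 genes (STAR) and 1146 TEs (TEtranscripts). The labels name polyA RNA, whereas the study's methods describe total RNA after removal of ribosomal RNA. Gene counts in reads shared by overlapping or near-identical genes cannot be separated. The members and gene lists were chosen with earlier results of these data known.

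From the deposited counts, CPM was scaled to 1000000 gene counts, and log2 CPM with a prior count of 2. TTR ranked the libraries, and genes with a mean count above 10 were compared as differences of means, with no test. Groups came from the labels, and each library is a separate mouse (lowest chi-square per degree of freedom between 2 mice 3.10). Exact permutation tests used 924 assignments of 6 against 6 and 48620 of 9 against 9. Group comparisons used edgeR 4.0.16 (TMM, quasi-likelihood, Benjamini-Hochberg, 0.05) in R 4.3.3, and DESeq2 1.42.0 as an alternative. Both steps were tested on simulated data. Chromosomes came from RefSeq (GRCm38.p6, the assembly of mm10), which matched 15632 genes, and promoters from its table.

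Genes were named by fixed rules: the 20 largest rises and the 10 largest falls between the sets, the 10 highest and 5 lowest correlations with TTR, up to 4 members with the largest difference of each list, a list of 18 genes of inflammation and brain aging most of which the study discusses, genes called or with the smallest p in a group comparison, and TTR. Not all are described. Other list members, C1QTNF5 and the X-linked and Y-linked summaries were added after their values were seen. Precision was limited by depth, 6.01 to 13.04 M gene counts per library, and by the spread between mice. For log2 TTR that spread was an SD of 2.83 or more in every group and sex. Alternatives were other scalings, prior counts, filters, set sizes and rankings, sex or group as a term, TTR as a term, and leaving out each mouse. Comparisons without YM1 and CFO2, within 1 sex, and with the TE share as a term were added after seeing the data. Figures were drawn with matplotlib 3.10.9 in Python 3.11.15.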

Additional observations from a re-analysis of the deposited data

Results flagged for a closer look

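Within each group and each TTR set, 100 checks asked whether the highest or lowest library stood apart from the rest by Dixon's 95% criterion, of which chance gives about 1 in 20, and 6 did. In older 3TC-treated mice DFO4, the library with the thalamus genes, stood apart with 47.0 CPM of IGFBP2 (next 27.4) and 278 CPM of TRPM3 (next 167), and it had the highest TTR of that group, 1513 CPM. ALB stood apart in CFO2, at 102 CPM, both among older mice (next 17.8) and among low-TTR libraries (next 52.4), and in DMO5, at 82.3 CPM, among high-TTR libraries (next 18.2). A2M, which encodes a protease inhibitor of plasma, stood apart in YF3 at 45.9 CPM among younger mice (next 33.0).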

How the results depend on the processing

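The 31 choroid plexus genes at least 0.5 higher stayed above 0 in all 961 values over 31 alternatives (0.08 to 2.75). These genes were chosen by their difference in the same libraries, so the sign was largely given by that choice and is a description only. The count of genes 2-fold or more higher, 15, was 9 with sex as a term, 5 among females only, 18 among males only (9 of the 15 shared), 10 when ranked by the choroid plexus lists (7 shared: IGF2, IGFBP2 and the 6 Y-linked genes were lost) and 14 to 17 without single mice. The count 2-fold or more lower, 1, was 0 with TMM factors, with genes and TEs scaled together, with the TE share as a term, without YM1 and CFO2, among males only and with the libraries ranked by the choroid plexus lists, 2 with a prior count of 0.5, 12 for the 6 highest against the 6 lowest libraries, 79 among females only, and 0 to 2 without single mice. The count of genes with every high-TTR library above every low-TTR library, 5, was 10 with TMM factors, 13 with genes and TEs together, 8 without YM1 and CFO2, 55 for 6 against 6, 83 when ranked by the choroid plexus lists, 162 and 201 among males and females only, where fewer libraries must be ordered, and 5 to 26 without single mice (26 without DFO5, 8 without CFO2). The opposite count, 0, was 34 for 6 against 6, 5 when ranked by the choroid plexus lists, and 77 and 1196 among males and females only. Another scaling moved the median of all genes from -0.03 to 0.12 (genes and TEs together).

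ALB turned to 0.24 when ranked by the choroid plexus lists. With sex as a term DDX3Y, KDM5D, USP9Y and UTY turned to -0.029, -0.094, -0.00083 and -0.017. DDX3Y was -0.057 among males only, and KDM5D, USP9Y and UTY were -0.20, -0.14 and -0.11 among females only. For reversed or moved values where no cause is given, the cause was not tested.

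TTR in older against younger mice was -0.52 to 1.16 without single mice (exact permutation test, log2 scale). In edgeR's aging comparison TTR was -0.23 to 0.71, ENPP2 -0.10 to 0.59 and KL -0.29 to 0.26 without single mice, and KL was 0.11 with sex as a term, 0.046 with the TTR set as a term and 0.41 without YM1 and CFO2. In the 3TC comparison IDE was -0.10 to 0.0064 and FGFBP3 -0.13 to 0.0040 without single mice. ENPP2 in older 3TC-treated against younger mice was 0.083 with log2 TTR as a term. Aging called 2 to 3 genes and TEs higher without single mice and 1 without YM1 and CFO2, and older 3TC-treated against younger called 1 to 2 without single mice, 1 with genes only and 1 without YM1 and CFO2.

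The label numbers were not used to pair the mice. The deviations of the 7 pairs of the same sex and number had correlations of -0.54 to 0.30, which cannot show whether these mice were handled together. A fit with sex and label number as a replicate block called 0 genes in aging and 0 in older 3TC-treated against younger. Its aging estimates were -0.28 for ENPP2 and -0.70 for TTR, and its 3TC estimate was 0.10 for IDE. The blocks take up most of the degrees of freedom, so the 0 calls of this fit decide nothing.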

Other observations

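A list of 18 genes of inflammation, interferon signalling and brain aging, most of which the study discusses, did not follow TTR: 5 lay above 0 between the sets and the median difference was -0.04, beside -0.03 over all genes. IL6 differed by -0.37 (3.36 ± 1.61 against 4.33 ± 1.69 CPM, SD, n = 9 each), TLR7 by -0.31, IL1B by -0.25 and TNF by -0.09, with overlapping sets in each, and C4B by 0.02 (161 ± 71.3 against 155 ± 54.6 CPM, SD, n = 9 each). The mean level of this list had r = 0.96 with the TE share and r = -0.29 with log2 TTR over the 18 libraries, which share their scaling to gene counts.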
